A study of Mus musculus with 38 samples.

Results

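The genes described here encode the mGluR6 signalling cascade of ON bipolar cells: Grm6, Nyx, Trpm1, Gnao1, Gng13, Gpr179, Rgs11, Gnb5, Pcp2 and Prkca. They were chosen by gene name, and all 10 were measured among 31731 genes named on the array. Spots of a probe were averaged, and where a gene had several probes the one with the highest mean log2 intensity over all retinas, called its brightest probe, stood for the gene. The series profiled single whole mouse retinas with 2-colour Agilent arrays at postnatal days 0, 3, 6 and 10 (P0, P3, P6 and P10). Its aim was to follow transcription around the first disorganization of retinas that lack CRB2. By the study's account the pigment epithelium was not included, but RNA of pigment epithelium genes was measured in these retinas, as given below. Each of the 19 arrays held 1 control and 1 conditional knockout (cKO) retina, labelled with Cy3 and Cy5.

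Control retinas were Crb2 F/+ Chx10Cre+/- and cKO retinas Crb2 F/F Chx10Cre+/-, both on a background backcrossed to C57BL/6J, so the controls also carried Cre and 1 floxed allele. The Chx10Cre transgene acts in retinal progenitors in a mosaic manner, so that mutant cells lie beside wild type cells. Each genotype had 5 retinas per age up to P6 and 4 at the last age. No retinas were pooled. In each retina between 63.9% and 80.2% of features (median 70.1%) were well above background by the flag of the scanner software. The Crb2 probe lies outside the deleted exons and therefore checks nothing about the genotypes: at P10 its mean log2 intensity was 12.44 for the controls and 12.43 for the cKO group. The study's own list of RNA samples gives the P10 retinas the opposite genotypes from the labels, whereas its table of hybridization pairs gives them the genotypes and dyes of the labels. The labels were followed, and with the RNA list every sign of cKO minus control at P10 would turn. Differences over all ages, which include P10, would change as well.

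ON bipolar cells receive glutamate from rods and cones and answer with the opposite sign, because their receptor mGluR6 closes a cation channel instead of opening one. In darkness glutamate holds mGluR6 active, its G protein Go keeps the TRPM1 channel shut, and a complex of a GTPase activating protein with its partners ends the G protein signal, so that light opens the channel and depolarizes the cell. Defects in several of these proteins cause congenital stationary night blindness. Bipolar cells are among the last cell types born in the mouse retina, and their dendrites meet the photoreceptor terminals in the days before eye opening.

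All 10 cascade genes rose from P0 to P10, and most of the increase came late. With limma and Benjamini-Hochberg adjustment over 39283 probes, 10 of 10 genes rose from P0 to P10, against 27.2% of all probes. None of the 10 fell (0 with limma, and 0 at an unadjusted p below 0.05), against 32.3% of all probes. The median change was 3.11 on the log2 scale, against -0.059 over all probes. In whole retinas, fewer cells of a type and less RNA per cell cannot be told apart, so these are changes in the share of RNA. Of the single steps, P0 to P3 raised 5 genes (15.0% of all probes rose), P3 to P6 raised 9 (19.1% of all probes) and P6 to P10 raised 9 (20.0% of all probes). The median change of the genes was 0.26, 0.96 and 2.04 in these steps, whereas the median over all probes was -0.019, -0.0087 and -0.016. The 5 genes that rose already by P3 were Gng13, Pcp2, Gnb5, Prkca and Gnao1, the last of which lost this call with array as a random block and dye as a covariate (adjusted p = 0.173). Trpm1 was the gene not called in either later step.

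**Figure D1:**
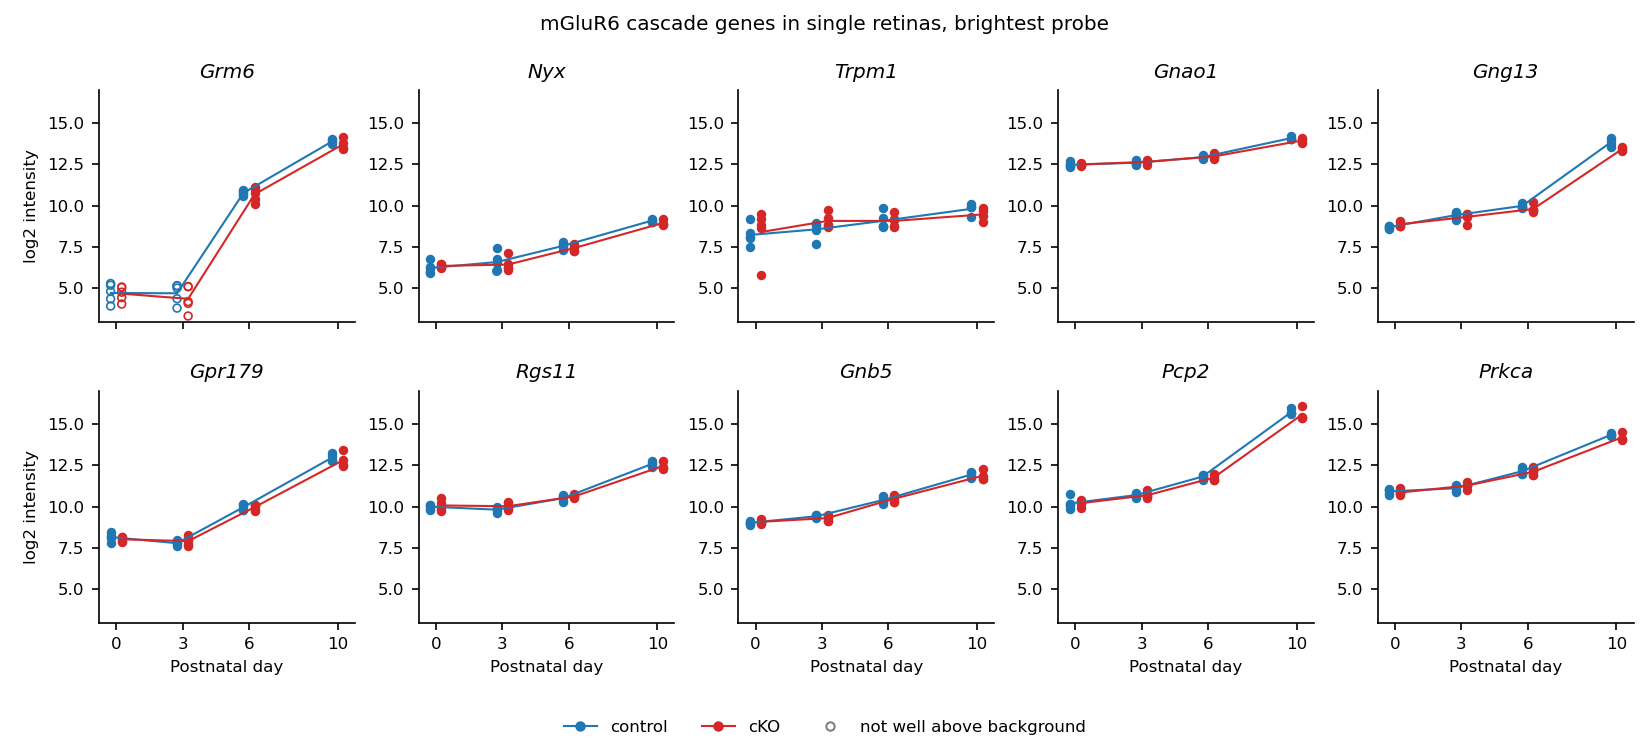
Log2 intensity of the brightest probe of each cascade gene in single retinas against postnatal day, control in blue and cKO in red, with lines through the group means. Open circles mark retinas in which the probe was not well above background: Grm6 lies between 3.33 and 5.30 at P0 and P3 and is above 10 in every retina from P6 on.

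Grm6, which encodes the receptor mGluR6 itself, had the largest rise of the 10. By the background flags it shared the latest onset with Nyx, although Nyx was above background in 9 of 10 retinas at both P0 and P3. Its probe was well above background in 0 of 10 retinas at P0 and in 0 of 10 at P3, then in 10 of 10 at P6 and 8 of 8 at P10. Its log2 intensity ran from 3.94 over a median of 4.80 to 5.30 at P0, and from 3.33 over 4.70 to 5.17 at P3. These retinas gave background readings with no order between the ages. At P6 the values ran from 10.12 over 10.78 to 11.16, and at P10 from 13.44 over 13.81 to 14.13, so that the retinas of P3, P6 and P10 did not overlap. From P3 to P6 Grm6 rose at least 37.3-fold (limma, adjusted p = 1.91e-22), and from P6 to P10 it rose a further 8.39-fold (3.07 ± 0.22 SE on the log2 scale, adjusted p = 1.08e-13). The lower bound, computed on loess and Aquantile normalized values, sets the mean of the bright age against the dimmest signal that was still well above background in each retina of the dim age, or the probe's own signal where that was higher. At P6, Grm6 stood at 11.9% of its P10 intensity.

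Nyx encodes nyctalopin, a leucine-rich repeat protein of the dendritic tips that is needed to hold TRPM1 there. Its probe passed the background flag in 9 of 10 P0 retinas, 9 of 10 P3 retinas and in every retina of P6 and P10. By the rule that an onset is the first age with every retina above background, Nyx and Grm6 had their onset at P6 and the other 8 genes at P0, but for Nyx 1 control retina at each early age decided this, and without P0 replicate 5 it counted among 9 genes present at P0. From the youngest to the oldest age, Nyx had medians of 6.30, 6.38, 7.55 and 9.03. The P0 and P3 retinas overlapped, with ranges of 5.92 to 6.77 and 6.04 to 7.47, and did not differ (0.22 ± 0.14, adjusted p = 0.231; 0.023 without P3 replicate 5). From P3 to P6 Nyx rose 1.99-fold (adjusted p = 2.14e-07), although the highest P3 retina was above the lowest P6 retina, at 7.25. The last step added 2.86-fold (adjusted p = 9.19e-11), with all 8 retinas of P10 above all 10 of P6.

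Trpm1 encodes the cation channel at the end of the cascade and is also transcribed in melanocytes and pigment epithelium. Its 3 probes gave different time courses, and the brightest of them, A_51_P338031, listed under another transcript than the other 2, gave the flattest. The first 30 bases of each 60-base probe are shown to tell the probes apart, 5′ to 3′ on the plus strand of mouse build mm9. They lie at chr7:71369544-71369573, chr7:71371607-71371636 and chr7:71413940-71413969, in this order, and capitals are not used because no part of them is singled out. The last probe lies 44.4 kb downstream of the brightest one and the middle probe 2.06 kb. Whether they fall in coding exons or UTRs was not analysed here.
A_51_P338031: aagtaggacatgtttgtggcagtttattta
A_55_P2043782: tgaacccccagccaaaggcaagaagaaaaa
A_55_P2037997: acttagcagttatgtcagttgttccagagg

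The brightest Trpm1 probe was above background in every retina, and neighbouring ages did not differ. By age its medians were 8.51, 8.84, 8.96 and 9.76, with ranges of 5.83 to 9.52, 7.67 to 9.75, 8.69 to 9.85 and 9.01 to 10.10. The steps of 0.51, 0.25 and 0.56 had adjusted p-values of 0.209, 0.555 and 0.162, and all 4 ages overlapped. The first step was 0.16 without P0 replicate 2, and the second was 0.16, 0.14 and 0.17 without P3 replicate 3, P6 replicate 1 and P6 replicate 4, so that neither size was stable. From P0 to P10 the probe rose 2.50-fold (1.32 ± 0.32, limma, adjusted p = 0.000482). Without P0 replicate 2, which held the lowest retina, the step from P6 to P10 passed the threshold (adjusted p = 0.0329).

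The downstream probe A_55_P2037997 instead had the same counts of retinas above background as Grm6. It was above background in 0 of 10 retinas of both P0 and P3 but in 10 of 10 P6 and 8 of 8 P10 retinas. Its values ran from 4.93 over 5.44 to 5.85 at P0, from 5.00 over 5.43 to 5.72 at P3, from 6.38 over 6.92 to 7.25 at P6 and from 12.04 over 12.46 to 13.08 at P10. The retinas of P3, P6 and P10 thus formed separate ranges. The rise from P3 to P6 was at least 2.31-fold (adjusted p = 3.12e-10) and that from P6 to P10 was 52.1-fold (5.70 ± 0.15, adjusted p = 3.17e-25). From P0 to P10 it came to at least 133-fold (adjusted p = 2.15e-29). The middle probe A_55_P2043782 was above background in every retina, with means of 6.70, 6.75 and 6.84 at P0, P3 and P6, and rose 3.91-fold from P6 to P10 (1.97 ± 0.16, adjusted p = 2.43e-12). It moved at the same late step as the downstream probe and by less. With the mean of the 3 probes in place of the brightest, Trpm1 was called as rising from P3 to P6 (adjusted p = 0.000144). No size is given for this step, since the downstream probe gave background readings at P3. From P6 to P10 the mean of the 3 probes rose by 2.74 (adjusted p = 1.08e-18).

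**Figure D2:**
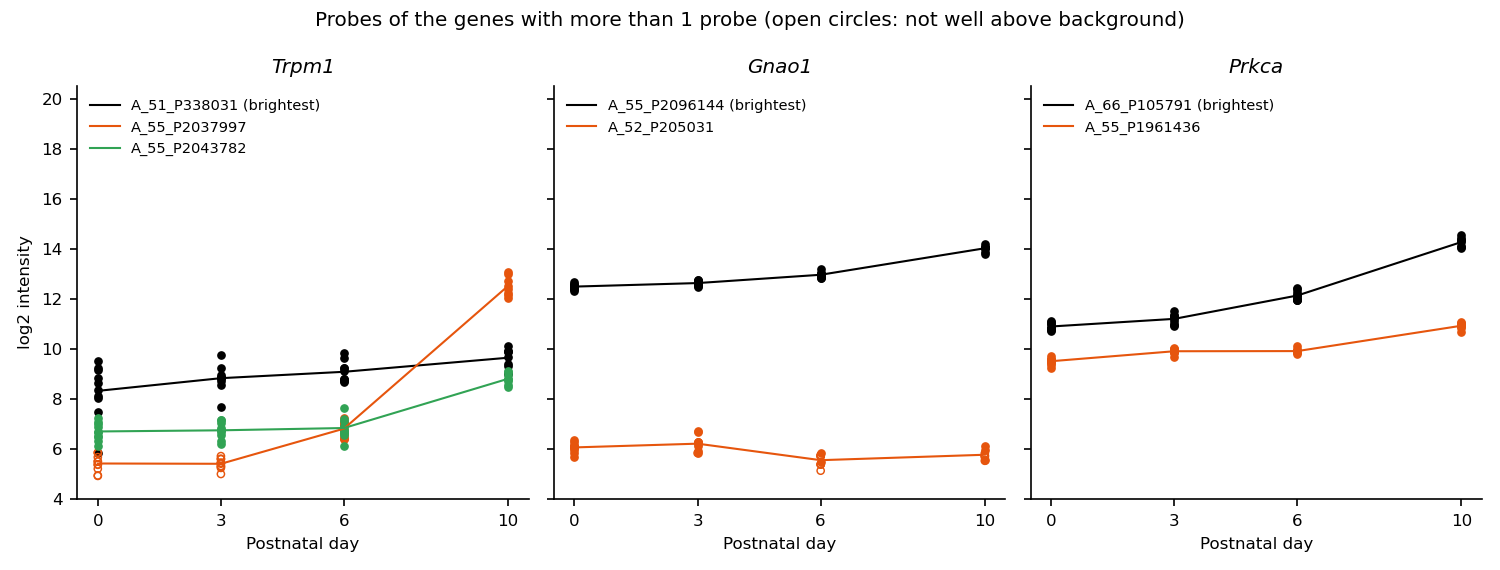
Log2 intensity of every probe of Trpm1, Gnao1 and Prkca, the cascade genes with more than 1 probe, in single retinas against postnatal day, with lines through the means of both genotypes and open circles where a probe was not well above background. The downstream Trpm1 probe in orange climbs from a mean of 6.81 at P6 to 12.52 at P10, while the brightest Trpm1 probe in black goes from 9.08 to 9.65.

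The spread of the brightest Trpm1 probe within an age went with RNA of pigment epithelium genes. Of 9 such genes (Rpe65, Ttr, Tyr, Dct, Tyrp1, Best1, Mitf, Rgr and Lrat), 5 rose from P0 to P10 and 0 fell with limma. Dct had medians of 11.89 at P0 and 13.02 at P10, and Rpe65 was above background in 7 of 10 P0 retinas, 4 of 10 P3 retinas and all retinas of P6 and P10. Of the 9 genes, 6 were above background in all P0 retinas, 2 in none of them and 7 in all P10 retinas, so that their mean includes background readings. The mean log2 intensity of the 9 genes averaged 7.63 (control) and 7.89 (cKO) in P0 retinas, 8.34 and 8.47 in P3 retinas, 8.94 and 9.01 in P6 retinas, and 9.51 and 8.87 in P10 retinas. At P0 the brightest Trpm1 probe rose with this mean over the 10 retinas (r = 0.88, permutation p = 0.00127, adjusted p = 0.0152; Spearman coefficient 0.81, permutation p = 0.00679, adjusted p = 0.0435). Adjustment was over 12 relations, of 3 probes at 4 ages, P10 included although no correlation is given for it, and the retinas of an array are not fully independent. Without the 2 retinas farthest from the median of the pigment mean, r at P0 was 0.57, so that the relation rested in part on these 2. At P3 r was 0.77 (permutation p = 0.0132, adjusted p = 0.0529), Spearman coefficient 0.33 (permutation p = 0.345, adjusted p = 0.517) and r without 2 retinas 0.59. At P6 r was 0.65 (permutation p = 0.0408, adjusted p = 0.122), Spearman coefficient 0.73 (permutation p = 0.0205, adjusted p = 0.0822) and r without 2 retinas 0.60. P0 was the age among these 3 at which the relation passed the adjusted threshold.

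Within slides 1, 2 and 4, for the age with most retinas on each, the relation had the same sign. It was not tested within slide 3. Over the 8 P0 retinas of slide 1, r was 0.88 (exact permutation p = 0.00379, adjusted over 4 slide relations, with the P10 retinas of slide 5 as the one not given, 0.0139; Spearman coefficient 0.86, exact p = 0.0107). Over the 6 P3 retinas of slide 2, r was 0.89 (exact permutation p = 0.0306, adjusted 0.0407; Spearman coefficient 0.71, exact p = 0.136), and over the 6 P6 retinas of slide 4 it was 0.81 (exact permutation p = 0.0528, adjusted 0.0528; Spearman coefficient 0.89, exact p = 0.0333). At P10 the pigment mean fell into separate clusters, so no correlation is given. The 3 retinas with pigment means of 8.33, 8.39 and 8.43 had Trpm1 at 9.33, 9.39 and 9.01, and the 5 with pigment means from 9.28 to 9.94 had it between 9.66 and 10.10. For the middle probe r was 0.21 at P0, 0.57 at P3 and 0.19 at P6 (adjusted permutation p = 0.793, 0.199 and 0.793). The downstream probe gave background readings at P0 and P3, so that no relation could be seen there, and at P6 its r was -0.42 (adjusted permutation p = 0.398). The part of pigment cells in the signal of the brightest probe was not tested.

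**Figure D3:**
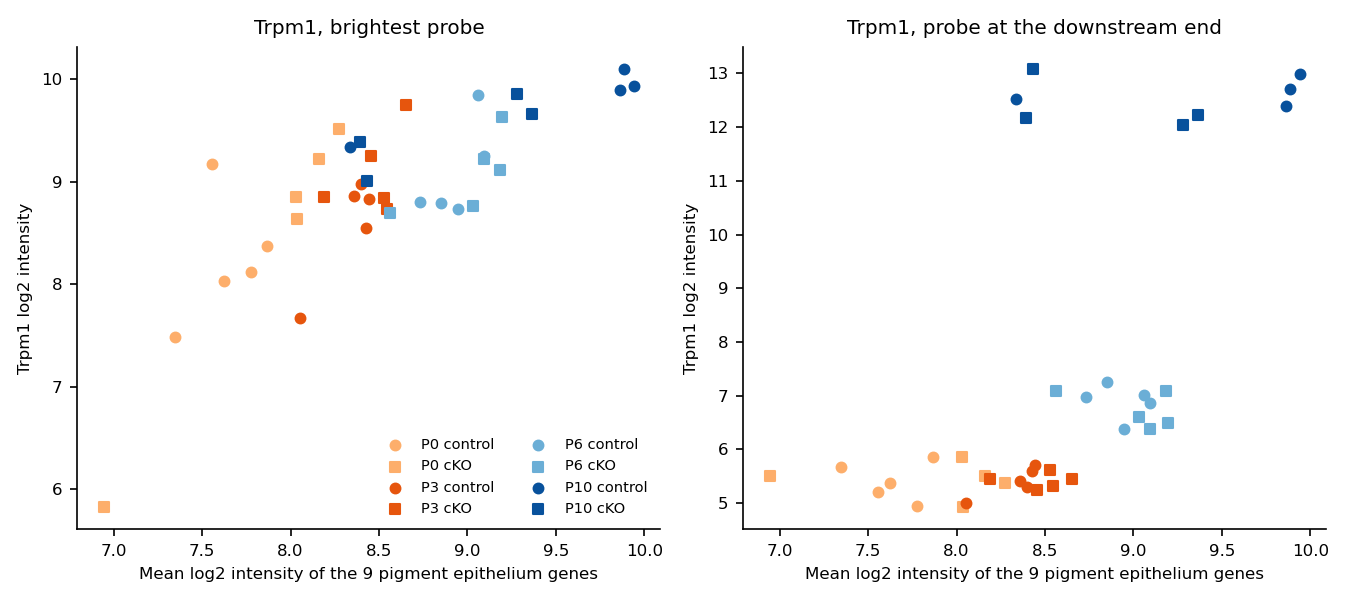
Log2 intensity of Trpm1 in each retina against the mean log2 intensity of the 9 pigment epithelium genes, with age by colour and genotype by shape (circles control, squares cKO). The brightest probe at the left climbs along the axis from a retina at 5.83 with the lowest pigment mean (6.94), whereas the downstream probe at the right separates by age, with the P10 retinas between 12.04 and 13.08.

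The G protein genes Gnao1 and Gng13 rose 2.89-fold and 28.4-fold from P0 to P10. Gnao1 encodes the alpha subunit of Go, which most neurons express, and it was well above background from P0 on. By age its medians were 12.49, 12.64, 12.95 and 14.05. The P10 retinas, from 13.78 to 14.21, lay above all earlier ones, and P0 and P3 overlapped. Gnao1 rose 1.26-fold from P3 to P6 (adjusted p = 2.29e-06) and 2.08-fold from P6 to P10 (adjusted p = 2.29e-17). With the mean over both probes the step from P3 to P6 was -0.16 (adjusted p = 0.0618). This is not an exact size, since the other probe gave background readings in most P6 retinas. The small step from P0 to P3 (0.14 ± 0.052, adjusted p = 0.0364) was lost with array as a random block together with dye as a covariate (adjusted p = 0.173) and with slide (0.220) or scan (0.229) as a random block, the last of these chosen after seeing the data, and with the mean over both probes (0.114). It was also lost without any 1 of P0 replicates 1 to 4 or P3 replicates 1 and 2, with adjusted p-values of 0.0684, 0.0649, 0.0704, 0.0718, 0.0688 and 0.112 in this order.

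A second Gnao1 probe, A_52_P205031, lies 13.2 kb upstream of the brightest, A_55_P2096144, and is listed under another transcript of the gene. No step of it was a rise that passed the threshold. It was above background in 10 of 10 P0, 9 of 10 P3, 2 of 10 P6 and 3 of 8 P10 retinas. With limma it fell from P3 to P6 (adjusted p = 3.68e-06) and from P0 to P10 (adjusted p = 0.0241), opposite to the brightest probe, but no size is given, since most retinas of the later ages gave background readings. The first 30 bases of both probes are given in mm9, plus strand, at chr8:96493228-96493257 and chr8:96480068-96480097, because their calls differed.
A_55_P2096144: ctgccagcctacttctctaatggattcctg
A_52_P205031: ggacaccaacaacatccaattcgtctttga

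Gng13 encodes the gamma subunit of the ON bipolar G protein. Its medians by age were 8.77, 9.46, 9.91 and 13.56. It rose by 0.58 ± 0.083 from P0 to P3 (adjusted p = 1.56e-06), 1.43-fold from P3 to P6 (adjusted p = 3.18e-06) and then 13.2-fold from P6 to P10 (3.73 ± 0.088, adjusted p = 2.35e-26). The P10 retinas, from 13.31 to 14.08, lay above every P6 retina (9.60 to 10.20), while the P0, P3 and P6 ranges touched: the highest P0 retina had 9.08, the lowest P3 retina 8.82 and the highest P3 retina 9.62. At P6 Gng13 thus stood at 7.55% of its P10 intensity.

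The genes whose products end the signal all rose by P10. Rgs11 encodes the GTPase activating protein that speeds GTP hydrolysis by Go, Gnb5 the beta subunit it needs for stability, and Gpr179 the orphan receptor that anchors the complex at the dendritic tip. By age, Gpr179 had medians of 8.14, 7.84, 10.03 and 12.83. Its P0 and P3 retinas overlapped, and the difference of -0.24 ± 0.10 did not pass (adjusted p = 0.0750). It passed with Agilent's processed signals (-0.33, adjusted p = 0.0157), among probes with a mean log2 above 7 (adjusted p = 0.0494), and without P0 replicate 4 (adjusted p = 0.0293), P3 replicate 4 (0.0470) or P10 replicate 1 (0.0291). Gpr179 then rose 4.33-fold from P3 to P6 (2.12 ± 0.10, adjusted p = 3.09e-18) and 7.57-fold from P6 to P10 (2.92 ± 0.11, adjusted p = 3.10e-21), with no overlap between the retinas of these ages.

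Rgs11 had medians of 10.04 and 9.90 at P0 and P3, which did not differ (-0.12 ± 0.088, adjusted p = 0.352; -0.041 without P0 replicate 2 and -0.057 without P3 replicate 2), then 10.60 at P6 and 12.47 at P10. It rose 1.56-fold from P3 to P6 (adjusted p = 2.35e-07), where the ranges still touched at 10.30 and 10.28, and 3.87-fold from P6 to P10 (adjusted p = 3.18e-18), where they did not. Gnb5, in contrast, rose at each step, by 1.24-fold, 2.10-fold and 2.77-fold (adjusted p = 0.00172, 5.26e-14 and 7.65e-17). The medians of Gnb5 by age were 9.05, 9.40, 10.40 and 11.89, and the ranges of P0 and P3 overlapped between 9.13 and 9.25. The 3 genes of this complex had reached 13.2% (Gpr179), 25.9% (Rgs11) and 36.2% (Gnb5) of their P10 intensity at P6.

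Pcp2 and Prkca mark ON and rod bipolar cells. Pcp2 encodes a modulator of Go, and Prkca encodes protein kinase C alpha, the usual stain for rod bipolar cells. Pcp2 had medians of 10.18, 10.70, 11.83 and 15.62 and rose at each step, by 1.41-fold, 2.13-fold and 14.5-fold (adjusted p = 0.000159, 1.74e-11 and 5.02e-25). Its step of 3.86 ± 0.10 from P6 to P10 was the largest among the brightest probes in that interval, with P6 retinas between 11.62 and 11.97 and P10 retinas between 15.40 and 16.12. Prkca had medians of 10.83, 11.24, 12.11 and 14.30 and rose by 1.23-fold, 1.91-fold and 4.40-fold (adjusted p = 0.00262, 3.42e-12 and 5.97e-21). Its second probe, A_55_P1961436, lies 4.86 kb from the brightest, A_66_P105791, and rose 1.32-fold from P0 to P3 (adjusted p = 6.48e-07) and 2.02-fold from P6 to P10 (adjusted p = 2.25e-16). It showed no change from P3 to P6 (0.0061 ± 0.054, adjusted p = 0.949), the interval in which the brightest probe gained 0.93.

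The genes shared a direction, and most of them shared the interval of their largest step. Grm6 made its largest step from P3 to P6, and 8 of the others made theirs from P6 to P10. The brightest Trpm1 probe had no called step, and its largest was from P6 to P10 (0.56) or, without P0 replicate 1, from P0 to P3 (0.73). At P6 the genes had reached between 6.91% (Pcp2) and 67.7% (Trpm1, brightest probe) of their P10 intensity, with a median of 24.3%. Changes from P0 to P10 ran from 2.50-fold for Trpm1 over 2.89-fold for Gnao1, 5.58-fold for Rgs11, 6.62-fold for Nyx, 7.21-fold for Gnb5, 10.4-fold for Prkca, 27.8-fold for Gpr179 and 28.4-fold for Gng13 to 43.5-fold for Pcp2. On the log2 scale, the 2.73 of Nyx became 2.08 with an offset of 50 and 3.50 with processed signals. With the mean over probes, Trpm1 went from 1.32 to 3.51, Gnao1 from 1.53 to 0.62 and Prkca from 3.37 to 2.40, each still a called rise. The 3.51 and 0.62 are not exact sizes. The downstream Trpm1 probe gave background readings at P0, and the second Gnao1 probe gave them in most P10 retinas. Grm6 rose at least 370-fold over this time, and with this bound in place of its fitted value the median of the 10 genes is the same. The ages shared slides and scans only in part. Slide 2 held 2 P0 and 6 P3 retinas, and within it 7 of 10 genes were higher at P3. Within slide 3, with 4 retinas of each age, all 10 were higher at P6 than at P3. Within slide 4, with 6 P6 and 2 P10 retinas, all 10 were higher at P10 than at P6. The 2 P0 and the 2 P10 retinas each came from 1 array, and shares of all probes are not given for these counts. The same counts, 7, 10 and 10, were found within scan 2 for the first and second step and within scan 3 for the last. For Grm6 the step from P6 to P10 was 3.19 within slide 4.

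**Figure D4:**
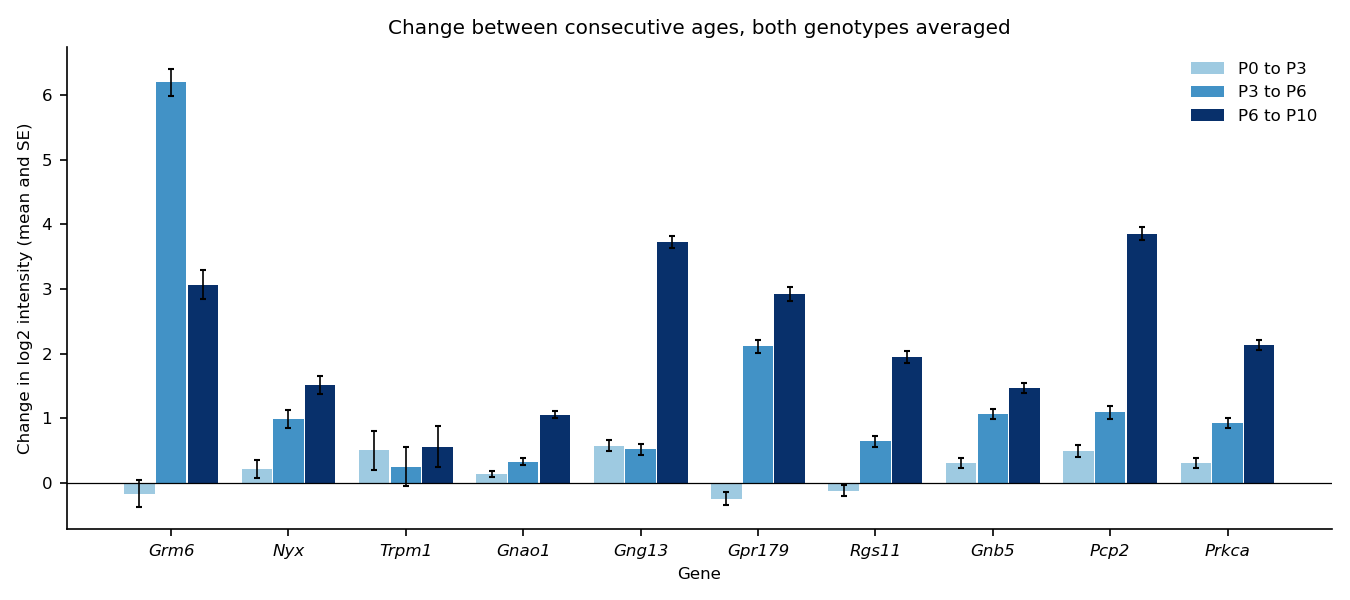
Change in log2 intensity between consecutive ages for each cascade gene (bars: mean over both genotypes from the limma fit; whiskers: SE). The tallest bar is the step of Grm6 from P3 to P6, which is drawn against background readings and is known only as a bound; in the other genes the dark bar for P6 to P10 is the tallest, from 0.56 in Trpm1 to 3.86 in Pcp2.

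Genes with the most similar time courses were sought among 17754 genes above background in every P10 retina, by the root mean square difference between the 8 centred group means. Nothing about shared function or control follows from such likeness. Named are those of the 3 closest that were above background in all 38 retinas, a condition set after the values were seen. Gabrr1, a GABA receptor subunit of bipolar terminals, was closest to Gpr179 (0.16 on the log2 scale), with A930003A15Rik farther off (0.32). No such genes are given for Grm6 or for the downstream Trpm1 probe, whose means at P0 and P3 were background readings. Nyx was closest to the potassium channel gene Kcnj5 (0.039), Gnb5 (0.085) and Pcsk6 (0.089), and Gnb5 to Kcnj5 (0.059), Rdh12 (0.077) and Rapgef5 (0.078). Gng13 had Esrrb (0.25), Dio2 (0.28) and Pcp2 (0.31), and Pcp2 had Gng13 (0.31). Prkca lay near Fgf1 (0.14), Rgs11 near Asic3 (0.094), and Gnao1 near Rhot2 (0.038) and Inpp5j (0.046). The brightest Trpm1 probe lay near Slc16a9 (0.097) and Samd8 (0.12). Among the cascade genes themselves, Nyx and Gnb5 were the most alike pair.

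Promoters were read because the genes rose together. RefSeq promoter sequences of 300 bases (build GRCm38.p6) were matched for 9 of the 10 genes by symbol; Rgs11 had no entry. Both strands were searched for TAATCC, the core of sites bound by CRX and OTX2, and TAATTA, a homeodomain core; the letters of the motif are in capitals. The 9 genes had 14 promoters. TAATCC was present in 7.06% of 32851 promoters and in 2 of these 14, Trpm1 (chr7:64153789-64153818, plus strand) and Gnb5 (chr9:75306270-75306299, plus strand), in both as its reverse complement. TAATTA was present in 5.29% of promoters and in 1 of the 14, Pcp2 (chr8:3625366-3625395, minus strand). A match describes the letters of a sequence and does not show binding.
Trpm1: cggggggagtagGGATTAaggctgattaca
Gnb5: tccagataaaagGGATTAggtgaccaatgg
Pcp2: ttatagggcatcTAATTAgcaagcaagtct

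Most other genes of the ON bipolar synapse also rose. Of 8 further genes of ON bipolar signalling, 6 rose and 1 fell from P0 to P10 (median 1.11), led by Rgs9bp (5.27), Gabrr1 (4.83) and Lrit1 (4.38); Rgs7bp fell by 0.85 (adjusted p = 0.0452) and Gabrr2 was not called (0.015). Across the cleft, 16 of 18 genes of the photoreceptor ribbon synapse rose and 1 fell (median 2.51), led by Slc17a7 (5.23) and Cplx4 (4.71), with Cabp4 not sized because it was above background in 3 of 10 P0 retinas. Of 15 bipolar transcription factors 11 rose and 3 fell (median 0.73); Sebox rose at least 54.0-fold and Vsx1 rose by 5.22. Of 12 other bipolar markers 10 rose and 1 fell (median 2.17), led by Scgn (at least 36.9-fold), Trnp1 (3.87) and Cabp2 (3.77). All 16 other glutamate receptor genes rose, by a median of 1.06, with Grm5 (2.55), Grik1 (1.70) and Gria3 (1.66) ahead. The median change of the cascade genes was thus above that of each of these 5 lists, a difference that was not tested.

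Markers of other retinal cells changed over the same days, and their part in the rise of the cascade genes was not tested. From P0 to P10, 16 of 16 rod genes rose (median 5.72), 7 of 11 cone genes rose and 3 fell (1.16), and 9 of 11 Müller glia genes rose and 1 fell (2.23), while 10 of 10 progenitor genes fell (-6.11). Of amacrine genes 8 of 11 rose and 2 fell (1.12), of horizontal cell genes 4 of 7 rose and 1 fell (1.43), and of ganglion cell genes 4 of 10 rose and 6 fell (-0.47). Of blood genes 3 of 5 rose (1.5), of microglia genes 7 of 9 (1.21), and of endothelium and pericyte genes 6 of 7 rose and 1 fell (0.83). Of 8 lens genes 0 rose and 0 fell with limma (median -0.59).

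No cascade gene differed between cKO and control retinas at any age after adjustment. With limma, 0 of 10 genes were called over all ages (0.00509% of all probes), 0 at P0 (0% of all probes), 0 at P3 (0.00255%), 0 at P6 (0%), 0 at P10 (0.00255%) and 0 for the interaction of age with genotype (0%). At an unadjusted p below 0.05 the counts of cascade genes were 1, 0, 0, 0, 1 and 1, Gng13 in each case, and those of all probes 1120, 213, 2179, 305, 615 and 263. The methods' t-test at each age gave 0 genes after adjustment, and unadjusted 0 at P0, P3 and P6 and 1 at P10, beside 355, 2205, 498 and 959 of all probes unadjusted and 1 probe, at P3, adjusted. The 2-way ANOVA also gave 0 interactions after adjustment, and before it 1 cascade gene among 295 probes. Of all probes, 2 differed over all ages, 4 with dye as a covariate, and 6 or 16 with dye and array as a fixed or random block; the cascade genes stayed at 0 in each. Without Grm6, which gave background readings at P0 and P3, differences over all ages ran from -0.14 in Gng13 to 0.086 in Trpm1, with 95% intervals within -0.36 and 0.53. At P10 the intervals of the 10 genes lay within -1.30 and 0.62, so differences of this size may have gone uncalled.

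Gng13 came closest to a difference, at P10. Control retinas 1 to 4 had log2 intensities of 13.94, 13.58, 13.75 and 14.08, and cKO retinas 1 to 4 had 13.54, 13.31, 13.35 and 13.47. The groups did not overlap, and on 4 of 4 arrays the cKO retina had the lower value, with differences of -0.39, -0.27, -0.40 and -0.62. The mean difference of -0.42 ± 0.13 (95% interval -0.69 to -0.15) had an unadjusted limma p of 0.00294 and an adjusted p of 1.00. An exact permutation test gave p = 0.0286, the smallest that 4 against 4 retinas allow. The share of all probes whose groups did not overlap is not given here. The limma fit and the permutation test do not use the pairing by array. With dye as a covariate the difference was -0.44. Over the alternative fits, among them array as a fixed or random block with dye, the lowest adjusted p was 0.208. At the earlier ages Gng13 did not differ: cKO minus control was 0.17 at P0, where cKO was lower on 1 of 5 arrays, -0.11 at P3 (3 of 5 arrays; 0.030 without P3 replicate 1 and -0.21 without P3 replicate 4) and -0.19 at P6 (4 of 5 arrays; -0.28 without P6 replicate 5), with overlapping groups. The interaction of age and genotype had an unadjusted p of 0.0177 and an adjusted p of 1.00.

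At P10 all 10 cascade genes had lower means in cKO than in control retinas, by small amounts. The median difference was -0.15, against -9.42e-06 over all probes. At P0, P3 and P6 there were 3, 5 and 7 genes lower, with medians of 0.043, 0.023 and -0.019, in which Grm6 stood with background readings at P0 and P3. Of all probes, 47.8%, 56.1% and 50.4% were lower in cKO at these ages. The size at P10 ran from -0.079 in Gnb5 to -0.42 in Gng13, and apart from Gng13 the groups overlapped for each gene, with exact permutation p-values from 0.171 (Nyx) to 0.60 (Gpr179 and Gnb5). These permutations do not use the pairing by array. Within arrays Nyx, like Gng13, had the lower value in the cKO retina on 4 of 4, by -0.29, -0.021, -0.12 and -0.13, and the other 8 genes on 3 of 4. The arrays did not all show it: with cKO on Cy3, replicate 1 had 3 of 10 genes lower (median 0.063), whereas replicates 2, 3 and 4, with cKO on Cy5, had 10, 9 and 10 lower (medians -0.22, -0.17 and -0.26). Replicate 1 was on slide 4 and the others on slide 5, so dye and slide cannot be told apart from each other here. On slide 5 alone the median was -0.21. With dye as a covariate all 10 genes were still lower in cKO, but Grm6 went to -0.38, Trpm1 to -0.13 and Pcp2 to -0.078. The sizes also turned on single arrays. Without replicate 1, Grm6 was -0.26, Trpm1 -0.14, Nyx -0.091, Gpr179 -0.28, Gnb5 -0.15, Pcp2 -0.23 and Prkca -0.23. Without replicate 3, Trpm1 was -0.56, Gnb5 -0.024 and Pcp2 -0.086, and without replicate 4, Grm6 was -0.059, Gpr179 -0.088, Gnb5 -0.040 and Rgs11 -0.082. No array turned the sign of a gene at P10. With the mean over both probes in place of the brightest, Gnao1 was not lower in cKO (0.031). Its second probe was above background in 3 of 8 P10 retinas, so this value includes background readings.

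**Figure D5:**
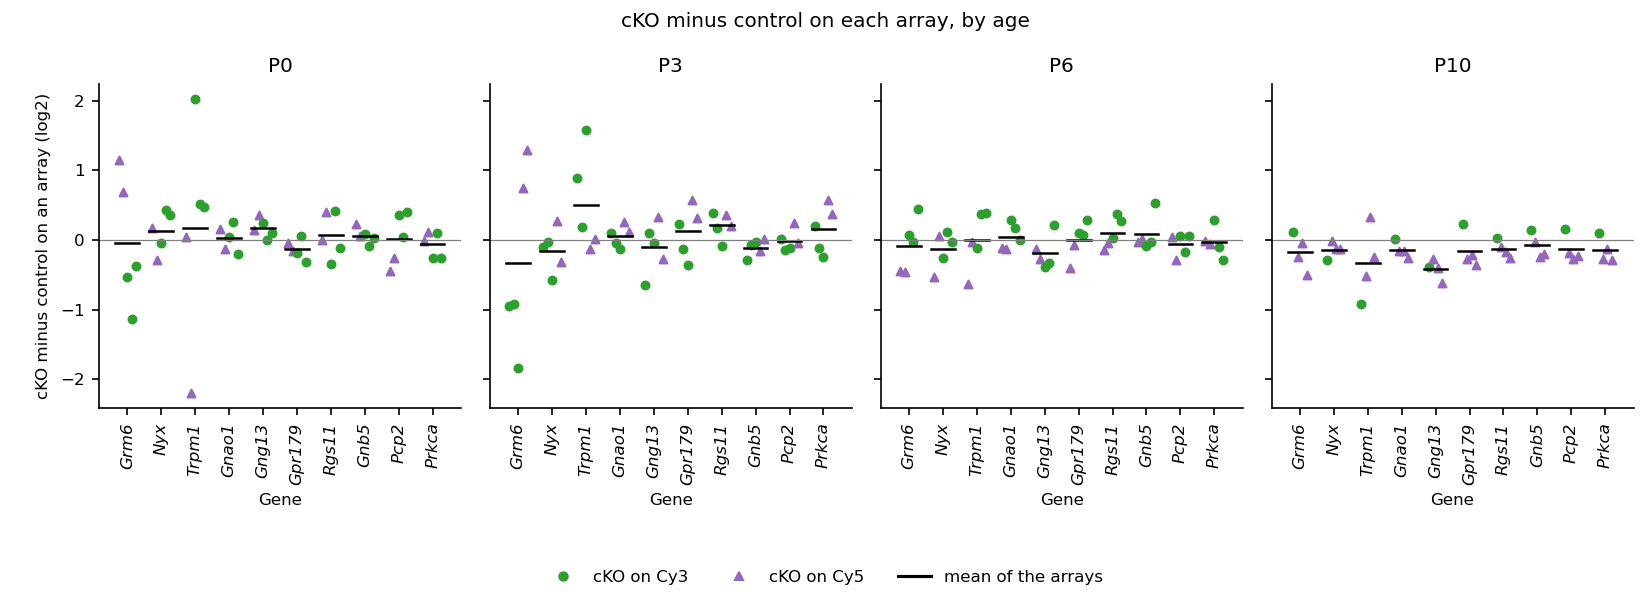
Difference in log2 intensity between the cKO and the control retina of each array for the 10 cascade genes at each age (green circles: cKO on Cy3; purple triangles: cKO on Cy5; bars: mean of the arrays). At P10 most points lie below 0, with Gng13 between -0.62 and -0.27, while at P0 and P3 the points of Grm6, which was not above background, and of Trpm1 scatter most.

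No gene of the lists was called between cKO and control at P10 (0 with limma in each list), and the lists differed in how many genes were lower. Among the 10687 probes that rose from P0 to P10, 64.0% were lower in cKO at P10 (median -0.032), and among the 12698 that fell, 42.4% (median 0.016). Medians near that of the cascade genes were found for rod genes (-0.14, 14 of 16 lower), Müller glia genes (-0.17, 10 of 11), other bipolar markers (-0.14, 10 of 12), cone genes (-0.11, 8 of 11) and further ON signalling genes (-0.11, 6 of 8). Smaller ones were found for glutamate receptors (-0.052, 13 of 16), horizontal cell genes (-0.046, 4 of 7), ribbon synapse genes (-0.028, 10 of 18), bipolar transcription factors (-0.015, 8 of 15), amacrine genes (-0.015, 7 of 11) and ganglion cell genes (-0.014, 6 of 10). Whether the lists differ from each other was not tested. Positive medians were found for progenitor (0.21, 0 of 10 lower), blood (0.16, 0 of 5), microglia (0.11, 3 of 9), lens (0.057, 3 of 8) and endothelium and pericyte genes (0.043, 3 of 7). The pigment epithelium genes had a median of -0.74, with 8 of 9 lower, from 1.23 on array 3 to -1.88 on array 2. Xist, transcribed from the inactive X chromosome of females, exceeded a log2 of 7 at P10 in every cKO retina (4 of 4) but in 1 of 4 controls, so genotype and sex were unequal there, and Nyx is on the X chromosome. The part of cell composition, sex and pigment in the P10 difference of the cascade genes was not tested.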

How the data were processed

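Scanner files of 19 Agilent 2-colour arrays (38 retinas) were analysed. The deposited intensity values, spot means and local background medians, had been read by the authors with Feature Extraction 9.5.3.1. The log2 intensities deposited by the authors (normexp and quantile in limma) served as an alternative only. The authors' own comparison files, which hold fold changes and p-values, were not used, and the array they left out at P10 was not analysed here. Of 44397 features, 1377 were controls and 158 were saturated or non-uniform on some array, which left 42862 features of 39283 probes; control spots entered the background fit only. Intensities were corrected with normexp (offset 0), quantile normalized over all channels and log2 transformed, and each channel was treated as 1 sample, in R 4.3.3 with limma 3.58.1 (statmod 1.5.0; version 1.17.8 of data.table). The fit had a mean for each of 8 groups of age and genotype; age changes average both genotypes. P-values were adjusted over all probes by Benjamini-Hochberg at 0.05. The number of arrays limits the precision. Code was tested on simulated data.

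Retinas were grouped by the labels. Same-array retinas deviated together (residual correlation 0.190 to 0.808, median 0.419, over 19 arrays; -0.362 to 0.0667 for other arrays of an age), so array pairs them. Correlations used 100000 permutations, or all possible ones where n was below 10. Genes named were the 10 members, for each up to 3 of the closest profiles, and per gene list up to 3 of the largest changes from P0 to P10, with any others named after their values were seen; members and lists were chosen with earlier results of these data known. The lists were further ON bipolar signalling genes, ribbon synapse genes, bipolar transcription factors, bipolar markers, other glutamate receptors, and markers of rods, cones, Müller glia, progenitors, amacrine, horizontal and ganglion cells, pigment epithelium, lens, blood, microglia, and endothelium with pericytes. Symbols are those of the array files; of 25966 probes with an accession listed by RefSeq, 22614 had the same symbol and 3352 another, and the current one is printed. Alternatives were an offset of 50, loess with Aquantile, Agilent's processed signals, the deposited log2 values, kept spots, only probes with a mean above 7, the mean over probes, array, dye, slide and scan terms, fits within an age, the methods' t-test and ANOVA, exchanged P10 genotypes and leaving out each array.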

Additional observations from a re-analysis of the deposited data

Results flagged for a closer look

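In 80 groups of 4 or 5 retinas (10 genes in 8 groups of age and genotype), 6 held a retina far from the others by Dixon's ratio. Chance marks about 1 in 20 groups. Trpm1 was 5.83 in P0 cKO replicate 2, against 8.64 to 9.52 in the other 4 retinas, and that retina also had the lowest pigment gene mean of P0. Gng13 was 8.82 in P3 cKO replicate 1 (others 9.35 to 9.52) and 10.20 in P6 cKO replicate 5 (others 9.60 to 9.76). Pcp2 was 16.12 in P10 cKO replicate 1 (others 15.40 to 15.41), and Prkca was 14.53 in the same retina (others 14.05 to 14.13), the cKO retina on Cy3 at P10. Gnao1 was 14.21 in P10 control replicate 3 (others 14.04 to 14.07). The causes were not tested.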

How the results depend on the processing

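Counts of cascade genes called kept within 1.5 times under every alternative run: 4 to 5 rose in the first step, 9 in the second, 9 to 10 in the third and 10 over the whole time, and 0 differed by genotype. Over 1200 alternative values of age changes of single genes, 1181 kept direction and side of the threshold, 10 lost and 8 gained the call, and 1 reversed: Gnao1 from P3 to P6 was -0.16 with the mean over its probes, of which 1 was above background in 2 of 10 P6 retinas. The replicate block by array, run with dye as a covariate, changed no call of a cascade gene other than that of Gnao1 from P0 to P3. The number of all probes that differed by genotype over all ages was 2, but 6 with processed signals, 4 with dye, 6 with dye and array as a fixed replicate block, 16 with dye and array as a random replicate block, 1 with P10 genotypes exchanged, and 1 to 4 with an array left out. The exchange of P10 genotypes turns each sign at P10 by construction. It can also turn signs over all ages, which were not computed for single genes under it. Without that setting there were 1630 values of cKO minus control, none of them called, of which 1582 kept their sign and 48 reversed. With loess these were Gnao1 over all ages (0.0046), Pcp2 at P3 (0.013), Trpm1 at P6 (0.0053) and Gpr179 at P6 (0.0048); with processed signals Gnao1 over all ages (0.011); with the mean over probes Trpm1 (-0.011) and Gnao1 (0.079) over all ages and Gnao1 at P10 (0.031); and with dye, alone or with array as a fixed or random replicate block, Grm6 (0.043) and Pcp2 (-0.0048) at P0. The means over probes of Trpm1 and Gnao1 include background readings. With an array left out, the ranges that crossed 0 were, at P0, Grm6 -0.34 to 0.23, Trpm1 -0.29 to 0.77, Gnao1 -0.035 to 0.081, Rgs11 -0.010 to 0.18 and Pcp2 -0.079 to 0.13. At P3 they were Grm6 -0.74 to 0.039, Gng13 -0.21 to 0.030 and Pcp2 -0.074 to 0.022. At P6 they were Grm6 -0.22 to 0.012, Trpm1 -0.097 to 0.15, Gpr179 -0.070 to 0.099, Gnao1 -0.021 to 0.084, Gnb5 -0.034 to 0.12 and Prkca -0.12 to 0.027. Over all ages they were Trpm1 -0.030 to 0.23, Gnao1 -0.021 to 0.0088, Gnb5 -0.040 to 0.0017 and Prkca -0.048 to 0.0029. The cause was not tested. Scan as a block was chosen after seeing the data. Signal over background limits Grm6 at P0 and P3, and the downstream Trpm1 probe with it, to bounds.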
